A study of Mus musculus with 2 samples.

Results

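Kcnh2 encodes the pore-forming subunit of the ERG potassium channel, which carries the rapid delayed rectifier current that helps to end the cardiac action potential. Loss of its human counterpart causes a form of long QT syndrome, and many drugs block the channel. TBX5 is a T-box transcription factor that binds DNA and is needed for heart development and for the cardiac conduction system. The peaks described here are the TBX5-bound sites of the Kcnh2 window on mm9, that is, all peaks of the merged TBX5 list whose summit lies on chromosome 5 from 23.78 to 23.91 Mb. There were 15 such peaks among the 8849 of the list, and 575 peaks lay on chromosome 5 as a whole. The window was chosen by the positions of the called summits, as a place where peaks lie close together, so the number and spacing of its peaks describe the choice and are not tested.

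The chromatin came from cardiac ventricles of wild type C57BL/6 mice aged 15 weeks, fixed with 2% formaldehyde and sheared by sonication. DNA pulled down with an antibody against TBX5, or with rabbit IgG as a control, was sequenced (ChIP-seq), and the design text gives 2 biological replicates for each. The replicates were merged into a single peak list, which is all that is used here, so the spread between replicates is unknown for every value. The IgG sample itself was not analysed here. Ventricular tissue holds several cell types, and the share of cells bound and the strength of binding in each cell cannot be told apart. The study asks what TBX5 does in the adult ventricle. No annotation of the mm9 build was used here, so the name Kcnh2 comes from the choice of window, and no peak was put in an exon, intron or promoter. No genome of that build was at hand either, so the bases under the peaks are not shown.

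TBX5 sites filled the middle of the window as a group of 11 peaks on chr5:23826388-23858685, a span of 32.3 kb in which each peak lay within 12.5 kb of the next. A pair of peaks lay 20.1 kb before this group and another pair 41.6 kb after it. Each peak is described by its TBX5 fragments at the summit, by the local control level there (control fragments per position, the highest of several windows) and by the authors' fold, the scaled TBX5 pileup over that control level. Of the 11 peaks, 2 stood far above the other 9 in fold. They lay 22.9 kb apart, and the stronger was the last peak of the group.

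The strongest site of the window was chr5:23858241-23858685, where 146 TBX5 fragments were counted (95% Poisson interval 123 to 172). The control level there was 6.75 and the fold 14.9, and counting error of the TBX5 fragments alone put this fold between 12.6 and 17.6. It ranked 137 by score in the whole list and 88 by TBX5 fragments. The other strong site was chr5:23835524-23835887, where 98 fragments (79.6 to 119) and a control level of 5 gave a fold of 13.0 (10.6 to 15.8). The fragment intervals of these sites did not overlap, while their fold intervals did. These intervals cover counting error alone, and by them the order in fold is not settled. Whether the order in fragments holds beyond the spread between replicates, which is unknown, was not tested. Both were broad for this list, at 445 and 364 bp against a list median of 202 bp.

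The next site in depth, chr5:23843110-23843561, had a low fold. Its 77 fragments (60.8 to 96.2) ranked 3 in the window, but its control level of 13 was the highest of the 15 peaks. The fold was 4.40 (3.49 to 5.48), which ranked 10. Taken as a difference, the scaled TBX5 pileup less the control level, it again ranked 3. The difference was 47.6 in units of the scaled pileup, behind 108 and 72.1 at the strong sites. At 452 bp this was the widest peak of the window, and its summit lay toward its far end, at 72.3% of the width. The place of this site in the order thus depended on whether the control was divided out or subtracted.

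The remaining 8 peaks of the group had 25 to 47 fragments, against a list median of 32. The site that opened the group, chr5:23826388-23826525, had 30 fragments (20.2 to 42.8) and a fold of 6.35. A pair of narrow peaks followed, chr5:23832526-23832656 with 25 fragments (fold 4.59) and chr5:23832913-23833068 with 27 fragments (fold 5.74), with summits 0.437 kb apart. These 3 narrow peaks lay over control levels of 2.88 to 3.50, the lowest of the group, and led up to the strong site at 23835644. Between the site with the highest control level and the far end lay chr5:23848170-23848374, with 25 fragments, a control level of 4 and a fold of 4.13. It stood alone, 4.76 kb from the summit before it and 6.40 kb from the next.

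The far end of the group was the most crowded stretch, with 5 peaks in 4.18 kb that covered 30.0% of its length. The first of them, chr5:23854502-23854707, had 47 fragments (34.5 to 62.5) and a fold of 6.33. The next, chr5:23855985-23856260, was the weakest peak of the window, with 26 fragments (17.0 to 38.1), a control level of 7, a fold of 2.68 and a −log10 q of 1.77. Only 1.24% of the list had a lower score, and the lowest −log10 q in the list was 1.30, so this site lay just above the threshold. Just before the strongest site came chr5:23857612-23857807 with 33 fragments (fold 3.85) and chr5:23857919-23858052 with 28 fragments (fold 3.23). The gaps between the edges of these last 3 peaks were 111 and 188 bp, so they may be parts of 1 enriched region. For the peak with 28 fragments a second reading, 30 fragments over a control level of 6.61, also lay within the tolerance, but it missed the deposited −log10 p by 0.00205 against 1.04e-05.

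**Figure D1:**
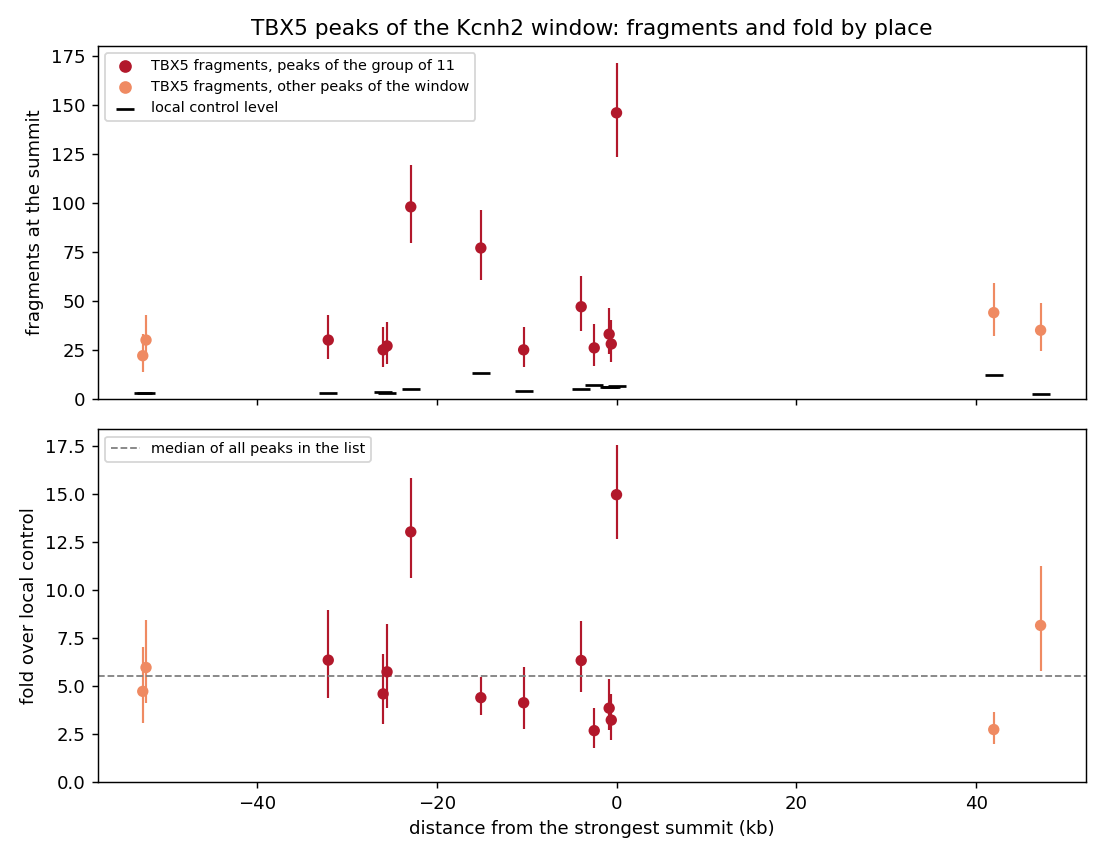
TBX5 fragments at the summit with 95% Poisson intervals and the local control level (upper panel), and fold over the local control with the interval from the counting error of TBX5 fragments (lower panel), for the 15 peaks by distance in kb from the strongest summit. The 2 strong sites, at 0 kb and at 22.9 kb before it, have the highest values in both panels. The site with a control level of 13 is high only in fragments. In each panel the interval of the strong site at 22.9 kb overlaps that of the next site in order.

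The flanking pairs held no site above a fold of 8.15. Before the group, chr5:23805765-23805924 had 22 fragments, the fewest of the window, and a fold of 4.72. Its neighbour chr5:23806112-23806320 had 30 fragments and a fold of 5.96, and their summits were 0.364 kb apart. The control levels of this pair were alike, at 2.88 and 3.12. After the group, chr5:23900316-23900685 had 44 fragments (32.0 to 59.1), a control level of 12 and a fold of 2.74. The last peak, chr5:23905588-23905816, had 35 fragments (24.4 to 48.7), the lowest control level of the 15 at 2.50, and a fold of 8.15 (5.76 to 11.2), which ranked 3. In this pair, with summits 5.21 kb apart, the site with more fragments had the lower fold, which follows from the control level in its denominator.

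Just outside the window, the nearest summit on the low side lay 7.38 kb beyond its edge, in chr5:23772361-23772777, with 85 fragments, a control level of 9.25 and a fold of 6.62. On the high side the nearest was 19.5 kb beyond the edge, in chr5:23929425-23929614, with 53 fragments, a control level of 16 and a fold of 2.51. The sites just inside were the flanking peaks with 22 and 35 fragments. The window therefore leaves out a site deeper than 13 of the 15 it holds. Further out, the next summits lay 269 kb below and 178 kb above the nearest summit of the window.

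Neighbours in the order of the 15 peaks mostly had overlapping counting intervals, which is no test of their difference. In the order of fragments, from 146 down to 22, neighbours had overlapping intervals in 13 of 14 steps, and only the step from 146 to 98 had none. Neighbours in the order of fold overlapped in all 14 steps. The interval at 77 fragments (60.8 to 96.2) met that at 47 (34.5 to 62.5) only at its end. Peaks further apart in the order were not compared in this way. The 2 strong sites together held 244 of the 562 fragments counted at the 11 summits of the group (43.4%), and the other 9 held 318. After subtraction of the control level their share was 47.4%. Across the 15 peaks, deeper sites were wider (Spearman's rho 0.70, against 0.60 in the whole list). This relation is built in, because both are read from the same pileup.

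The Kcnh2 window held many TBX5 peaks, but peak for peak their folds were close to those of the list. Of the 15 peaks, 2 had a fold of at least 10 (13.3%, 95% Clopper-Pearson interval 1.66 to 40.5), as did 13.7% of all peaks. The list median was met or passed by the folds of 7 of 15, against 50.1% of all peaks. The median fold was 4.72 (order-statistic interval 3.85 to 6.35) in the window and 5.52 in the list, and the median fragments were 30 (26 to 47) and 32. Median width, 206 bp against 202 bp, and median score, 84 against 81, were likewise near the list. With peaks within 1 kb merged, the median width in the window was 364 bp, the upper end of the order-statistic interval of the unmerged peaks (156 to 364 bp). A score at or above the list median was found at 8 of 15 peaks, against 50.3% of all. All peaks come from the same merged replicates and neighbours share chromatin, so these intervals treat as independent what may not be. A share near the background is no result about these peaks.

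Control levels in the window ran from 2.50 to 13, with a median of 5 (2.88 to 6.75) against 3.50 in the list. A level of 5 or more lay under 8 of 15 peaks (53.3%, interval 26.6 to 78.7), against 35.7% of all peaks. A level of 3 or more lay under 11 of 15, against 64.4%. Both backgrounds fell inside the intervals of the window's shares. Every one of the 15 lay above the genome background level, as did 91.4% of all peaks. A whole-number level was assigned to the control pileup at the summit itself, although an average can also be whole. This held for 7 of 15 peaks, against 60.9% of all, and the other 8 were assigned to the 1 kb average. In the 1 kb around the strongest summit this average stood for 54 control fragments (40.6 to 70.5), against 23 (14.6 to 34.5) at the peak that opened the group. The 5 crowded peaks at the far end had levels of 5 to 7, and the 6 peaks before them ran from 2.88 to 13, with the highest at the site with 77 fragments. No label names the library that served as the control, and the part of the control level in the TBX5 fragments was not tested.

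**Figure D2:**
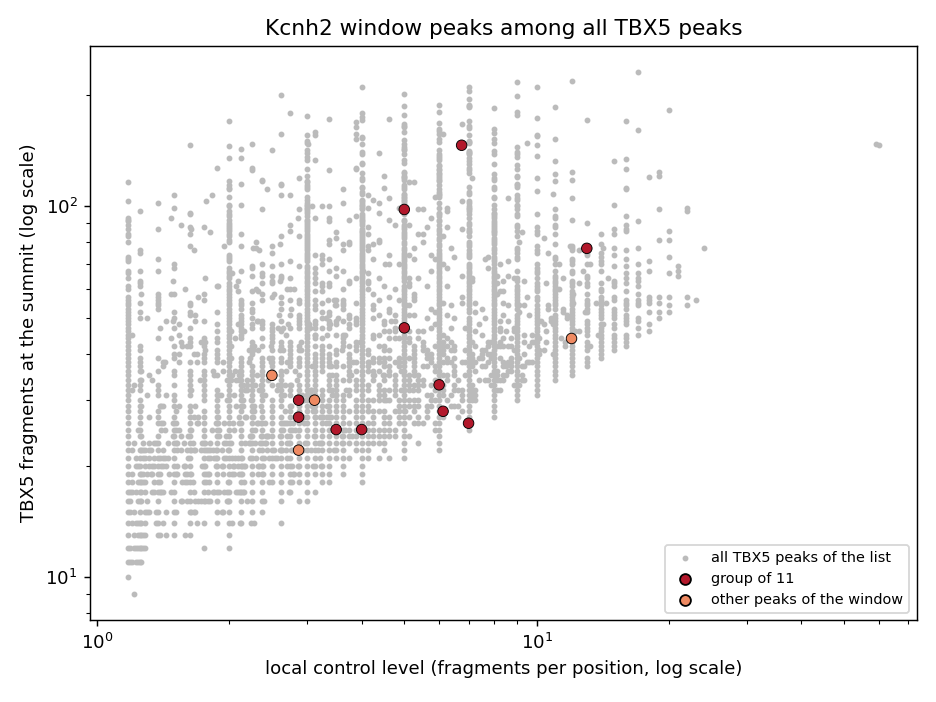
TBX5 fragments at the summit against the local control level, both on log scales, for all 8849 peaks (grey) and the 15 peaks of the Kcnh2 window (red for the group of 11, orange for the flanking pairs). The window's peaks spread through the grey cloud from 22 to 146 fragments, with the strongest near its upper edge and 2 peaks at control levels of 12 and 13.

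Close spacing was the property by which the window was chosen, and its values are given as a description. The 10 steps between neighbouring summits of the group ran from 235 bp to 7.79 kb, with a median of 2.15 kb. Another peak lay within 1 kb of 7 of the 15 peaks, against 10.8% of all peaks. The peaks covered 2703 bp of the group's span, or 8.37%. With peaks within 1 kb merged, the window held 11 sites and the group 8. The caller's numbers ran from 6223 to 6237 without a gap, so the list skips no peak number between the first and the last of them.

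Among all stitched groups of the list, 374 held 3 or more peaks, and the group of 11 was second in number of peaks and second in summed TBX5 fragments. More peaks, 12, lay on chromosome 11 from 98235651 to 98256720, where 475 fragments were summed and the median fold was 4.13. More fragments, 719, lay in 8 peaks on chromosome 9 from 119378723 to 119407025, where the deepest summit had 210. The span of the group of 11 ranked 9 among the 374, and its 0.341 peaks per kb ranked 154, near the median of 0.301. In the 5 groups with the most peaks, peaks per kb ran from 0.134 to 0.570. The highest fold of the group of 11 ranked 75 among the 374, with a median of 8.69 for the highest fold of a group. Its median fold of 4.59 ranked 263. More peaks give more chances of a high maximum and a longer span, so ranks by highest fold, by sum and by span are partly set by size. Peaks per kb counts all peaks over a span with fewer gaps than peaks, which favours small groups.

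The groups of 9 peaks gave other mixtures of the same readouts. The group on chromosome 1 from 74045165 to 74064653 had no fold of 10 or more, a highest fold of 7.79 and a median control level of 7. On chromosome 15 from 25844767 to 25893603, 3 of 9 peaks reached a fold of 10 and the highest was 17.5, over a median control level of 3.50. On chromosome 6 from 101257924 to 101324949, 3 of 9 did so as well, over a median control level of 2 and with at most 63 fragments at a summit. The Kcnh2 group, with 2 of 11 at that fold and a median control level of 5, had the deepest summit of these 5 groups. Differences between groups were not tested, since each is a single place in a single list.

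**Figure D3:**
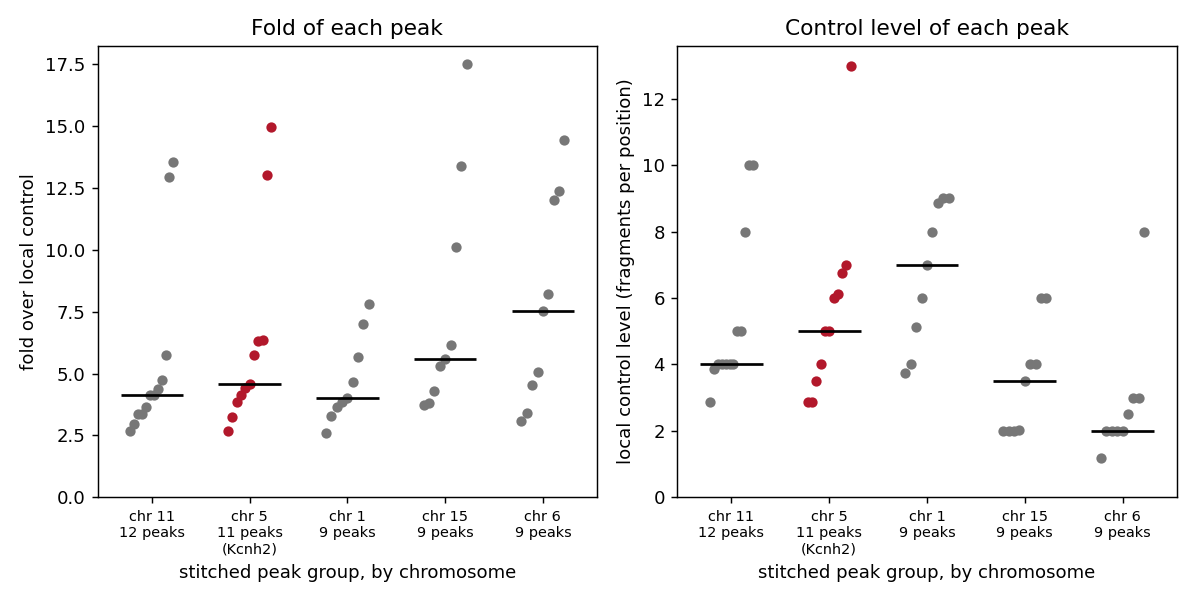
Fold over the local control (left) and local control level (right) of each peak in the 5 stitched groups with the most peaks, each column 1 group named by its chromosome, points ordered by value and black lines at the medians. In the Kcnh2 group (red) 2 peaks lie above a fold of 10 and the other 9 at 6.35 or below, and its highest control level is 13.

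In the order of genes in a RefSeq table of assembly GRCm38.p6, which is another build, Nos3, the endothelial nitric oxide synthase, Gm15587 (a long non-coding RNA) and Atg9b (a gene of the autophagy machinery) follow Kcnh2. On its other side lie Gm15589 and Gm33476, both long non-coding RNAs, and Gm9836, a transcribed pseudogene. The interval of Gm15589 overlaps that of Kcnh2. Which of these genes lie under or beside the TBX5 peaks was not determined on mm9. Kcnh2 is known to be transcribed from more than 1 start, giving the long ERG1a and the shorter ERG1b subunits. The RefSeq promoter table held 1 start for Kcnh2, which lies inside the gene and not at its upstream edge. Its stretch of 300 bases (250 before the start and the rest after) was searched on both strands for short motifs of cardiac factors. The T-box core AGGTGTG was not in it, nor was the shorter GGTGTG, and these were in 1920 and 6257 of the 32851 tabulated stretches (the longer in 5.84%). Matches to the shorter motif include those to the longer. The motif AGATAA of GATA factors was also not in it, against 11.2% of all stretches. Nor were AAGTG, a core of NKX2-5 sites, and ACATTCC, a motif of TEAD factors, against 46.4% and 3.85%. This says only that these letters are not in this promoter stretch. Whether any of the 15 peaks covers the stretch was not determined, and the bases of the peaks themselves were not searched.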

How the data were processed

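Chromatin immunoprecipitated for TBX5 was sequenced by the study, and the list used here is 1 merged list of peaks. Per the submitters' processing notes, the tools were MACS2 2.1.1.20160309.0, Bowtie2 2.2.6.2 and FastQC 0.10.0, and the genome build was mm9. For peak calling settings, the control given to MACS2 and the merging of replicates, no detail is given in the sources used here. Per peak, the deposited columns hold a summit, a score, a fold over the local control (a ratio), −log10 p and −log10 q. For 8846 of 8849 peaks the authors' score equals 10 times −log10 q without its decimals.

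The fold and −log10 p of a peak together give its fragments at the summit. MACS2 writes the fold as (scaled TBX5 pileup + 1) / (control level + 1), and p as the Poisson tail of that pileup. A scale of 0.787 gave a whole number of TBX5 fragments for all 8849 peaks, with a largest difference of 0.000151 on −log10 p. Control levels above the genome background of 1.18 fell on steps of a 125 bp fragment at the summit or averaged over 1 kb or 10 kb, within 0.002. Levels that were whole numbers were assigned to the summit. More than 1 solution lay within 0.005 on −log10 p for 264 peaks, and the closest was taken. Tested on simulated data of 2787 and 2911 peaks, the recovery was right for 100% of them. These peaks were made with the same formula, without 10 kb averages. Their fragments and control levels covered a narrower range than in the list, so the computation alone was tested.

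Intervals on fragments are exact 95% Poisson intervals, those on shares exact 95% binomial (Clopper-Pearson) intervals, and those on medians 95% order-statistic intervals. Those on fragments cover counting error alone, and those on shares and medians treat the peaks as independent draws. None of them covers the spread between replicates. Without molecular identifiers, reads are not independent molecules. Peaks on chromosomes 1 to 19 and X whose edges lay within 12.5 kb were stitched into groups. Every peak of the window is described, Kcnh2 and its neighbours are the genes named, and other groups are named by place. The members and lists were chosen with earlier results of these data known, and no test was run on them. Counts of peaks over other potassium channel genes need an mm9 annotation and were not run. The peaks of 73 caller numbers that the list skips were not analysed here. Computing was done with scipy 1.17.1 and numpy 2.4.6 in Python 3.11.15, tables with pandas 2.3.3, figures with matplotlib 3.10.9.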

Additional observations from a re-analysis of the deposited data

How the results depend on the processing

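Of 39 alternatives fixed for these results, 32 stayed within a factor of 1.5 for a count or rank, or within the order-statistic interval for a median, and 7 moved the value. Kept to peaks with a score at or above the list median, the window held 8 peaks and its group 6, which then ranked 1 with 2 other groups of that size. With a stitching distance of 5 kb the group had 5 peaks and ranked 5, as 1 of 6 groups of that size. With 25 kb it had 13 and ranked 4, as 1 of 2 groups of that size. Ranked by peaks per kb it was 154. A stricter score or a shorter stitching distance can only lower the group's size, by construction. A rank also depends on how the other groups change, and the cause of its moves was not tested. The number of peaks with a fold of 10 or more stayed at 2 in all 4 alternatives tried. Only the widened window could have changed it, since the others keep both strong sites and add no peak. Such fixed outcomes are also among the 32. Merging within 1 kb raised the median width from 206 to 364 bp, a merged peak being as wide as all it joins, and gave a median fold of 5.96, above the list median of 5.52 for unmerged peaks. No replicate could be left out, since they were merged before deposit. No paired analysis was possible, because the values come from a single merged list, and no test was run. Depth limits what the q threshold lets into the list, and sites that missed it were not analysed here.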
